A study of Homo sapiens with 23 samples.

Results

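The HOX cluster genes are the 39 protein-coding genes whose symbol is HOXA, HOXB, HOXC or HOXD followed by a number, and all 39 were found among the 36085 genes to which the RNA-seq tables could be matched. The HOXA cluster holds 11 of them, the HOXB cluster 10, and the HOXC and HOXD clusters 9 each. They were followed in NCCIT cells, a human embryonal carcinoma line with pluripotent-like features. SCi-NCCITs are NCCITs that carry, through piggyBac integration, a doxycycline-inducible dCas9-KRAB (a nuclease-dead Cas9 fused to a repressive domain that recruits H3K9me3) and 2 constitutively expressed sgRNAs against the SVA family of transposable elements. Both conditions therefore carried the transgene and the sgRNAs. The paper states that the sgRNAs also target sequences of the LTR5Hs family, so effects on SVAs and on LTR5Hs cannot be told apart here. Treated cells received 2 µg/mL doxycycline for 72 hours, and untreated cells none. RNA-seq covered 3 libraries without and 3 with doxycycline, YY1 ChIP-seq 2 and 2, OCT4 ChIP-seq 1 and 1, and H3K9me3 ChIP-seq 2 and 2 plus 1 library of parental NCCITs without dCas9-KRAB. No library came from doxycycline-treated cells that lacked the system, so the drug and the induced repressor cannot be told apart. The labels do not say whether libraries of a condition came from separate cultures, and the p-values measure the spread between these libraries.

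HOX genes encode homeodomain transcription factors that give positional identity along the body axis. In each cluster the genes lie in paralogue order, and during embryogenesis the low-numbered genes at the 3′ end are switched on earlier and more anteriorly than the high-numbered genes at the 5′ end. In pluripotent cells the clusters are known to be held largely silent by Polycomb complexes, and retinoic acid opens them from the 3′ end. YY1 is a zinc finger factor related to the fly Polycomb-group protein Pleiohomeotic, and OCT4 (POU5F1) is a core pluripotency factor. H3K9me3 is a mark of heterochromatin that differs from the Polycomb mark H3K27me3, which was not profiled.

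The estimated counts on genes ranged from 14683468 in no doxy replicate 1 to 47862394 in doxy replicate 2, with the other 4 libraries between 31905915 and 46639141. The cells carried the defining RNAs of pluripotent cells. OCT4 (POU5F1) had a mean of 206 TPM (a transcript level scaled by transcript length and library size) without and 183 with doxycycline, and SOX2 had 348 and 295. The 10 pluripotent markers summed to 1700 to 1880 TPM without and 1310 to 1460 with doxycycline, and 5 of the 10 were called lower, with NANOG at −0.57 log2 (adjusted p = 0.000136, edgeR). Of 8 neural markers 2 of the 7 tested were called higher, and the 8 summed to 97.2 to 112 TPM without and 121 to 160 TPM with doxycycline. NES, which was called, made up most of this sum, with means of 98.8 TPM without and 133 TPM with doxycycline. The other neural marker called was NEUROG2, with means of 0.243 and 0.443 TPM. Of 8 mesoderm markers 1 of 6 was called higher (108 to 147 and 114 to 126 TPM), of 8 endoderm markers 1 of 3 (1.16 to 1.47 and 2.04 to 2.32 TPM), and of 8 fibroblast markers 1 was higher and 1 lower (85 to 111 and 102 to 116 TPM). HAND1 made up most of the mesoderm sum, with means of 124 TPM without and 116 TPM with doxycycline, and was not called. The mesoderm marker called higher was MIXL1, with means of 1.65 and 2.33 TPM (adjusted p = 0.0227, edgeR). GATA6 was the endoderm marker called higher, with means of 0.432 and 1.05 TPM (adjusted p = 0.00194, edgeR). The mesoderm marker TBXT and the endoderm marker SOX17 had means of at most 0.0532 TPM in either condition. The part of these markers in the HOX results was not tested. Across all 16371 genes tested with edgeR, 2858 (17.5%) had an adjusted p under 0.05. SVA transcripts themselves were not analysed here.

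HOX RNA was scarce in these cells, and most of it came from a few 3′ genes of the HOXB cluster. Of the 39 members, 6 (15.4%) reached a mean of 1 TPM over the 6 libraries, against 64.5% of all 19849 protein-coding genes. A further 16 lay between 0.1 and 1 TPM and 17 below 0.1 TPM. At a threshold of 0.1 TPM 22 members counted, against 80.1% of protein-coding genes, and at 5 TPM 2 members, against 50.9%. The median member had 0.118 TPM, against 5.45 TPM for the median protein-coding gene. In bulk samples, fewer cells of a type and less RNA per cell cannot be told apart. The members summed to 24.3 to 29.3 TPM in the libraries without doxycycline and to 27 to 30.5 TPM in those with it.

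HOXB3, which patterns the hindbrain, had the highest mean level at 7.49 TPM. Its values were 8.21, 7.28 and 5.98 TPM without and 7.38, 7.19 and 8.87 TPM with doxycycline. HOXB2, which acts in the same region of the hindbrain, had 6.06, 5.64 and 6.27 TPM without and 9.38, 8.26 and 7.74 TPM with doxycycline. The ranges of these neighbours overlapped, and together they made up 53.4% of HOX TPM. HOXD4, near the 3′ end of its cluster, followed with 4.85, 3.61 and 3.73 TPM without and 4.11, 3.49 and 4.34 TPM with doxycycline, below each library of HOXB2 and HOXB3. HOXC4 had 1.83, 1.81 and 1.81 TPM without and 1.67, 1.49 and 1.98 TPM with doxycycline. HOXB7 had 1.99, 1.59 and 1.35 TPM without and 1.28, 1.2 and 1.56 TPM with doxycycline. HOXD13, a 5′ gene known for its role in the digits, had 1.10, 0.893 and 1.11 TPM without and 1.27, 1.03 and 1.3 TPM with doxycycline. HOXC4 and HOXB7 overlapped in range, as did HOXB7 and HOXD13. The 6 genes held 83.9% of HOX TPM.

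The levels did not fall evenly along the paralogue order. Groups 2, 3 and 4 held 26.4%, 28.5% and 22.0% of HOX TPM. HOXB1, the most 3′ gene of its cluster, had 1 count in total over the 6 libraries. At the other end, group 13 held 7.04%, and the groups from 8 to 12 held between 0.318% and 1.60% each. By cluster, HOXB held 61.6%, HOXD 23.6%, HOXC 9.42% and HOXA 5.37%. No HOXA gene reached 1 TPM. HOXA13, HOXB8, HOXC5, HOXC8, HOXC11 and HOXC12 had mean levels of at most 0.0119 TPM and 1 to 6 counts in total. Of the 39 members, 18 had 0 counts in at least 1 library. CPM are counts scaled by library size after TMM normalisation, and not by transcript length. A count of 0 allows up to 3 counts, by counting error only. That is 0.204 CPM in no doxy replicate 1 and 0.0628 to 0.0946 CPM in the other libraries.

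**Figure D1:**
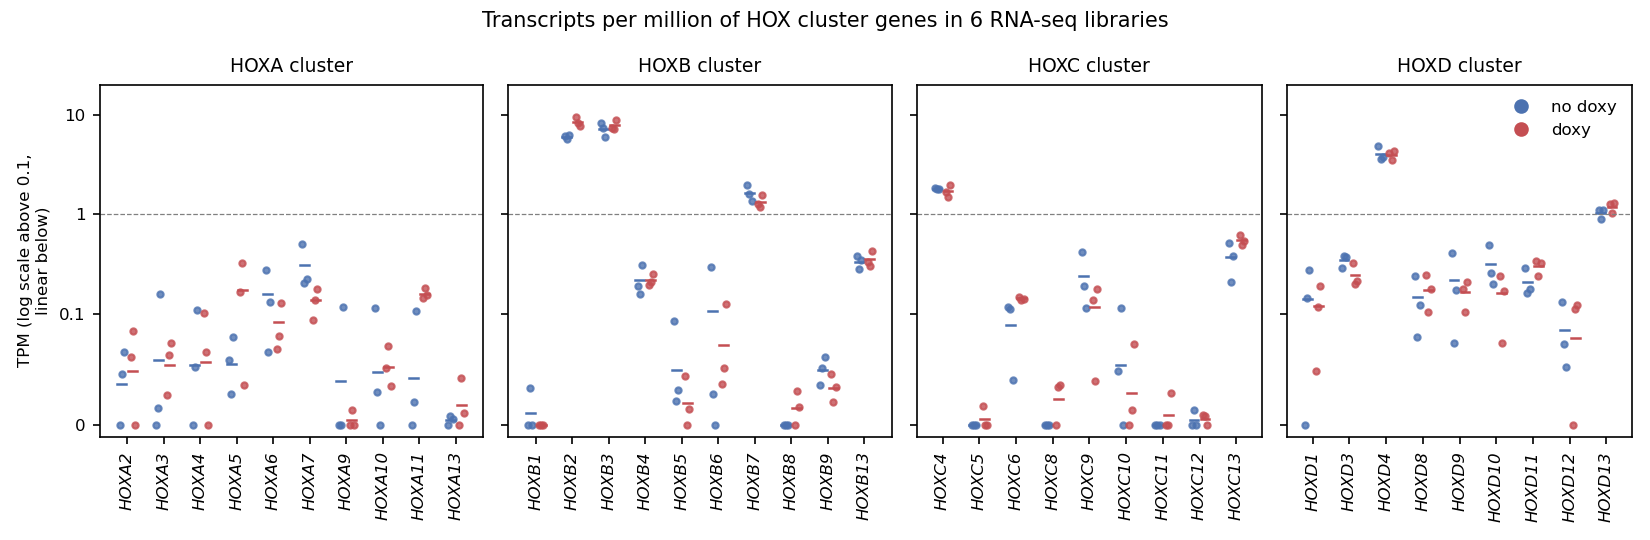
Level of HOX cluster genes in TPM (log scale above 0.1, linear below), by cluster, with 3 libraries without doxycycline in blue, 3 with doxycycline in red and a bar at each mean. The dashed line marks 1 TPM, above which HOXB2, HOXB3, HOXB7, HOXC4, HOXD4 and HOXD13 had their means.

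With doxycycline, HOXB2 rose and no other member passed the test. HOXB2 had 5.38, 5.42 and 6.20 CPM without and 8.91, 8.60 and 7.78 CPM with doxycycline. All 3 treated libraries lay above all 3 untreated ones. Its log2 fold change was 0.56 ± 0.103 (SE; edgeR quasi-likelihood test, Benjamini-Hochberg adjusted p = 0.00646), or from a mean of 5.67 ± 0.460 to 8.43 ± 0.582 CPM (SD, n = 3). In the 13 other settings tried, HOXB2 kept an adjusted p between 0.00196 and 0.0331. Of the 39 members, 16 passed the filter on low counts and could be tested, and 1 of 16 (6.25%) was called, against 17.5% of all genes tested. For the direction, 1 of 16 was called higher and 0 lower, against 8.97% and 8.48% of all genes. The other 23 members had 1 to 45 counts in total and at most 0.42 TPM in a single library.

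HOXB3, whose start lies upstream of HOXB2 on the same strand, had 10.9, 12.7 and 11.7 CPM without and 13.7, 13.8 and 15.2 CPM with doxycycline. The groups did not overlap in CPM, although they did in TPM, and the log2 fold change was 0.27 ± 0.0853 with an adjusted p of 0.0584 in the edgeR test. It passed in 1 of the 13 other settings, with an adjusted p of 0.0482 where each library had to hold at least 10 counts. The highest adjusted p of these settings was 0.374 in edgeR, with length-scaled counts, where the log2 fold change was 0.19. HOXA11, a 5′ gene of the limb and the reproductive tract, had 0, 1 and 7 counts without and 11, 14 and 12 counts with doxycycline. Only its treated libraries, at 0.244, 0.293 and 0.255 CPM, reached the level asked by the filter on low counts. The untreated ones had 0, 0.0315 and 0.163 CPM. HOXA11 was therefore tested only because it was high with doxycycline, and its estimate is no support for a change. Its log2 fold change was 1.57 ± 0.608 with an adjusted p of 0.109 in edgeR, and no doxy replicate 3 decided the call, since without that library the values were 3.44 and 0.0346. The 0 counts in no doxy replicate 1 came from the library with the fewest reads.

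For HOXB7 the log2 fold change was −0.30 ± 0.189 (adjusted p = 0.311, edgeR), with 1.64, 1.29 and 1.25 CPM without and 1.04, 1.17 and 1.11 CPM with doxycycline. HOXD13 had 0.26 ± 0.169 (adjusted p = 0.313), HOXD4 0.04 ± 0.156 (0.881) and HOXC4 −0.06 ± 0.151 (0.812) in the same test. Further tested members included HOXA7, HOXB4, HOXB13, HOXC13, HOXD3, HOXD9, HOXD10 and HOXD11, with log2 fold changes from −0.64 for HOXD10 to 0.69 for HOXC13 and adjusted p between 0.158 and 0.971 in edgeR. Over the 16 members 9 estimates were positive and 7 negative, with a median of 0.11, against −0.0025 over all genes tested. CPM of the groups did not overlap in 5 of 16 members, against 36.9% of all genes. HOXA11, which entered the test through its treated libraries, is among the 9 positive estimates and among these 5. The cluster sums were 15.6 ± 1.52 TPM without and 18.3 ± 0.939 TPM with doxycycline for HOXB, and 6.57 ± 1.11 and 6.44 ± 0.840 TPM for HOXD (SD, n = 3).

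**Figure D2:**
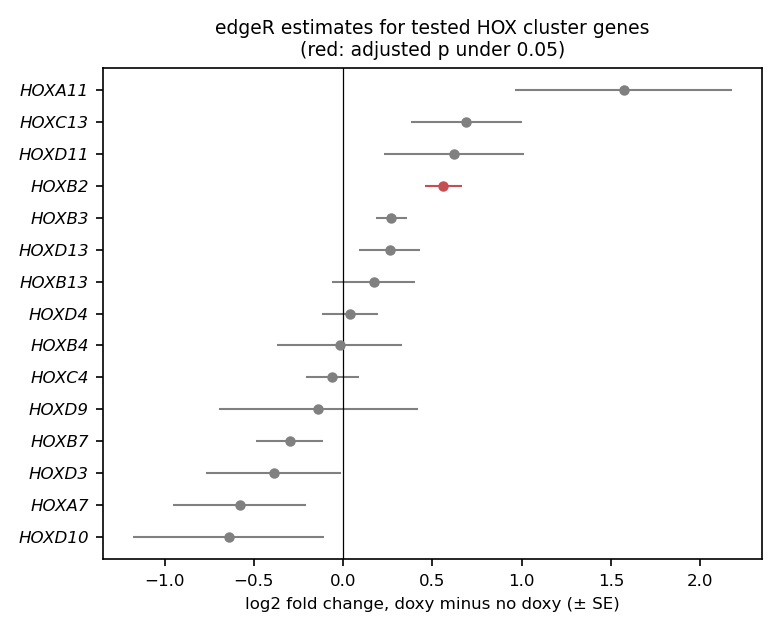
Log2 fold change with doxycycline (doxy minus no doxy, ± SE from edgeR) for HOX cluster genes that passed the filter on low counts. HOXB2, in red at 0.56, is the member with an adjusted p under 0.05, while HOXA11 at 1.57 has the widest error.

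The reads of HOXB2 and HOXB3 came from particular transcripts. HOXB2-201, at chr17:46620017-46622471 on the minus strand of hg19, took 94.8% of HOXB2 counts. HOXB3-205, a transcript from the 3′ part of the gene at chr17:46626232-46631284, took 65.2% of HOXB3 counts. HOXB3-207, which starts far upstream and spans chr17:46627174-46667603, took 18.6%. By length-scaled level the transcripts stood closer, at 2.32 TPM without and 2.92 TPM with doxycycline for HOXB3-205, and 1.61 and 2.02 TPM for HOXB3-207. The canonical transcript HOXB3-212, with 7.23% of counts, had 0.892 TPM without and 0.478 TPM with doxycycline, and HOXB3-204 had 0.997 and 1 TPM. Single transcripts were not tested. HOXB7-201, HOXC4-202, HOXD4-201 and HOXD13-201 held between 95.3% and 100% of their genes' counts. Of the exons of HOXB2-201, 5.17% are shared with the antisense RNA HOXB-AS1, and of those of HOXB3-205, 8.89% are shared with HOXB-AS1 and 1.83% with HOXB-AS3. The libraries were directional, but the strand setting of the quantification is not given in the sources used here, so sense and antisense reads over these stretches cannot be told apart. The 19 noncoding RNAs of the clusters on the list, HOTAIR, HOTTIP, HOTAIRM1 and HAGLR among them, had no matched transcript in the tables and were not analysed here.

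Genes that act with or on the HOX clusters were read from lists of cofactors, Polycomb and Trithorax subunits and retinoic acid genes. Log2 fold changes here come from edgeR on counts and need not match the TPM means, which are also scaled by transcript length. Over all genes tested, 8.97% were called higher and 8.48% lower. Of 9 TALE cofactors, which bind DNA together with HOX proteins, 3 were called higher and 0 lower. PBX3 rose by 0.26 ± 0.0514 on the log2 scale (adjusted p = 0.00903, edgeR), MEIS2 by 0.31 and MEIS3 by 0.51. MEIS1 and PKNOX1 had log2 fold changes of −0.31 and −0.15 and did not pass. Of 12 PRC2 genes 1 was called higher and 2 lower. EZH2, the H3K27 methyltransferase, fell by 0.38 ± 0.0562 (adjusted p = 0.00220, edgeR), with means of 30 TPM without and 21.7 TPM with doxycycline. JARID2, which helps to recruit PRC2, fell by 0.61, with means of 69.3 and 44 TPM. EED rose by 0.19, and SUZ12 had −0.15 without passing. Of 19 PRC1 genes 4 were called lower and 0 higher: PCGF6, PHC1, KDM2B and RYBP, with log2 fold changes from −0.37 to −0.25, while RNF2 had −0.12 without passing.

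Of 14 Trithorax genes and H3K27 demethylases 2 were called lower and 0 higher. ASH2L, a shared subunit of the H3K4 methyltransferase complexes, fell with a log2 fold change of −0.99 in counts (means of 129 and 60.8 TPM). KDM6A, an H3K27 demethylase, had −0.30. KMT2A, the methyltransferase best known for maintaining HOX expression, had −0.34 with an adjusted p of 0.0555 in edgeR. Of 18 retinoic acid genes 2 were called higher and 3 lower. ALDH1A2, which makes retinoic acid, rose with a log2 fold change of 1.18 in counts (means of 3.73 and 10.6 TPM), and RARG rose by 0.39. STRA6, a retinol transporter, had −0.74, CRABP1 −0.58 and RDH10 −0.34. RARA, RARB and CYP26A1, a retinoic acid target that degrades it, did not pass and had −0.05, 0.14 and 0.17. CDX2, a regulator of posterior HOX genes, did not pass, with a log2 fold change of 0.52 in counts (adjusted p = 0.162, edgeR). Its TPM means lay closer, at 0.854 without and 0.926 with doxycycline. CDX1 was too low to test. Of 8 tested genes flanking the clusters, SMUG1 next to HOXC and MTX2 next to HOXD were called higher, at 0.28 and 0.26. Of the factors themselves, YY1 had −0.10 (adjusted p = 0.202, edgeR) and did not pass, and CTCF was called lower at −0.23. These lists were compiled with earlier results of the data known. Their counts stand beside a background of 17.5% of all genes in either direction, 8.97% higher and 8.48% lower.

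H3K9me3 was sparse over the HOX clusters in each library. The 4 clusters, taken with 5 kb on each side, span 562711 bp together. They held 6 peaks in parental NCCITs, 12 and 3 in SCi-NCCITs without doxycycline, and 6 and 1 with it. Per 100 kb that is 0.178 to 2.13 peaks, against 4.28 to 6.32 over the whole genome, and 0.143% to 1.09% of the clusters was covered, against 4.08% to 6.37% of the genome. The means of 7.5 without and 3.5 peaks with doxycycline differed by less than the spread between libraries (exact permutation test, two-sided, p = 0.67, where 2 against 2 libraries cannot go below 0.33). No doxy replicate 1 held 12 of the peaks, and with a −log10 q of at least 5 the means were 2.0 and 1.0. At equal list length the order turned, at 3.0 without and 3.5 with doxycycline.

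At promoters, taken as 1 kb on each side of the start, H3K9me3 peaks touched 5 members in no doxy replicate 1 and 2 in doxy replicate 1, with 0 in the parental library and in the second library of each condition. Over all protein-coding genes the share was 2.15% in the parental library, 4.81% and 3.1% without and 3.66% and 3.43% with doxycycline. In both libraries of a condition it was 2.55% without and 2.14% with doxycycline, and 0 members had a peak in both. The 5 members (12.8%), against 6.46% of genes with a peak in any of the 5 libraries, were HOXA7, HOXA9, HOXC10, HOXC13 and HOXD10, and HOXA7 and HOXA9 were also the 2 of doxy replicate 1, with fold enrichment over local background between 2.69 and 3.89. None of the 6 members with a mean of at least 1 TPM carried such a peak, HOXB2 included. Of 17 H3K9me3 loci in the clusters, 1 recurred in all 5 libraries. It lies at chr17:46771335-46772991 between HOXB13 and HOXB9, in an intron of the noncoding gene LINC02086. The fold enrichment there was 4.71 in parental NCCITs, 5.99 and 4.35 without and 6.03 and 5.05 with doxycycline, so the conditions overlapped. A YY1 peak called in all 4 YY1 libraries lay within it.

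**Figure D3:**
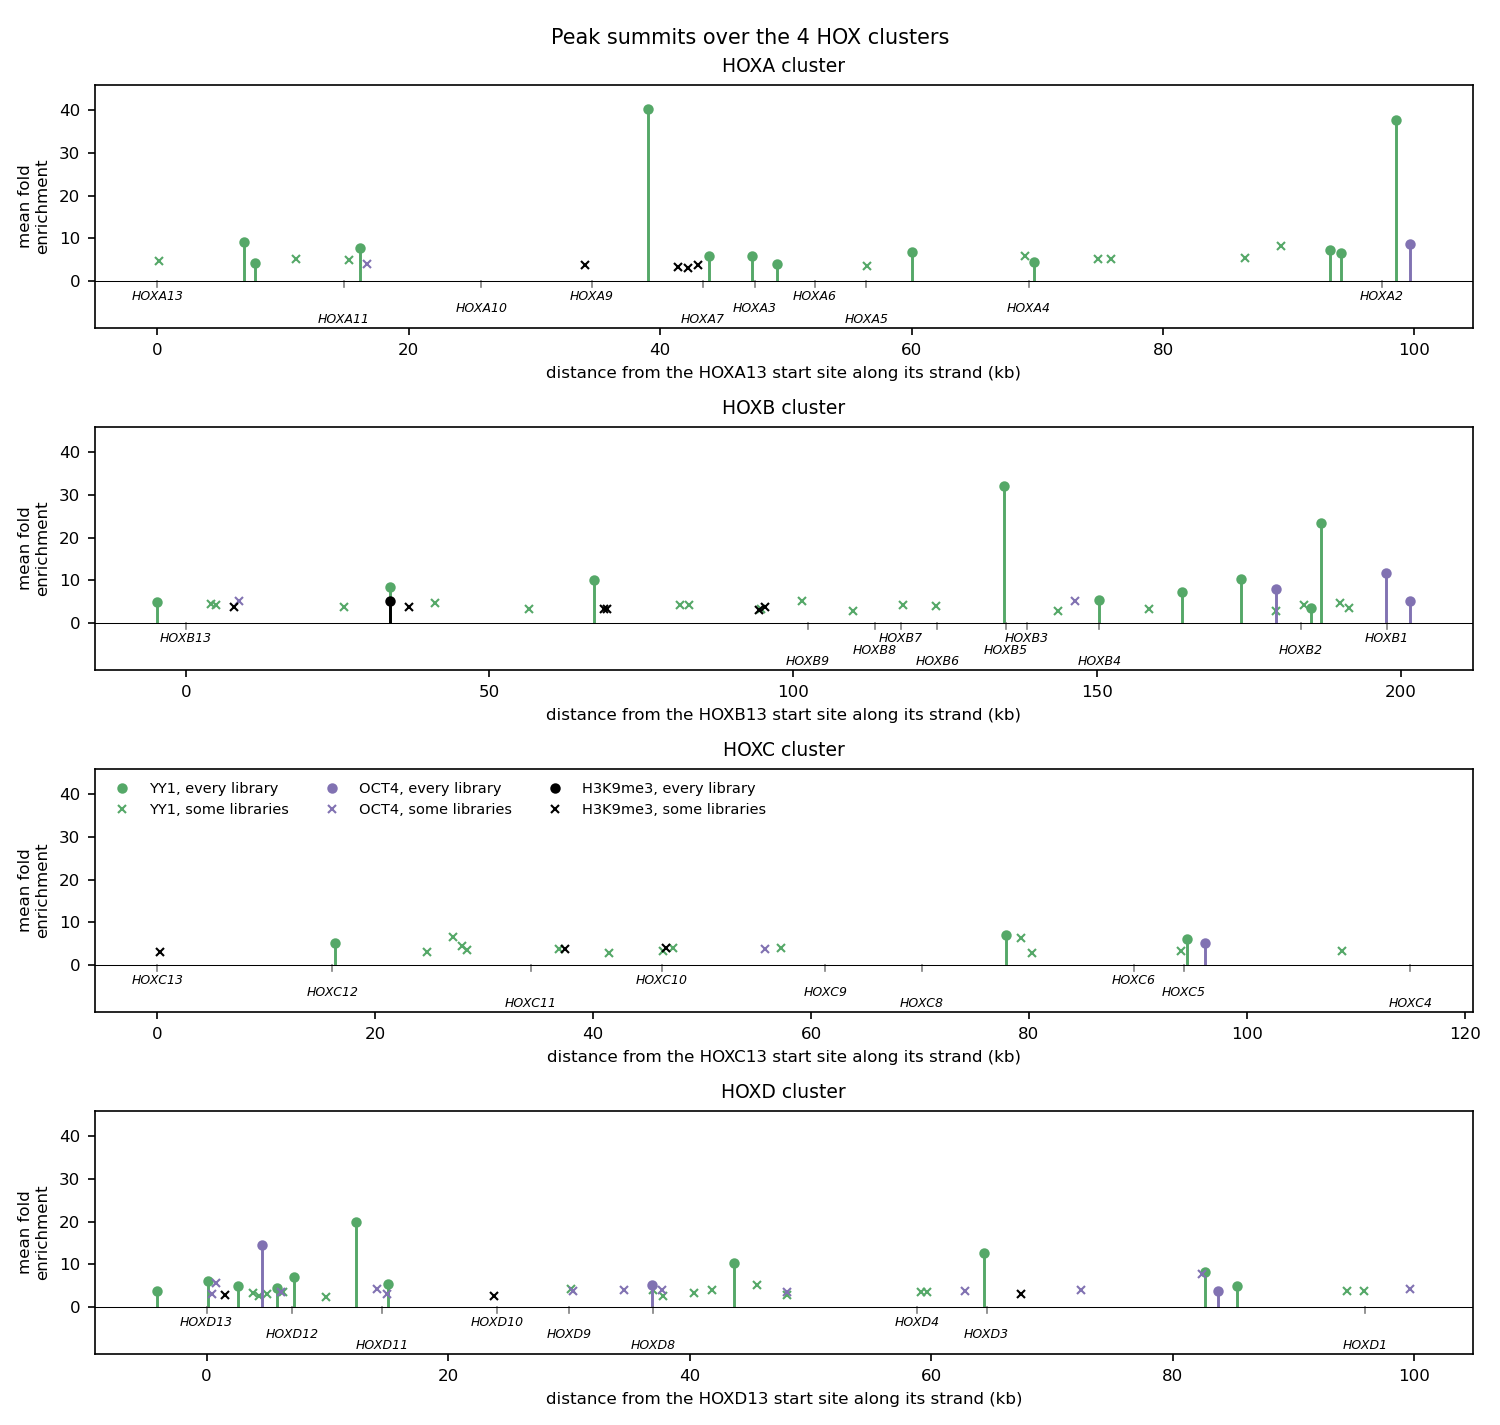
Peak summits nearest to the member start sites shown in the 4 clusters, as distance in kb from the start of the group 13 gene along its strand, against mean fold enrichment over the libraries with a peak. Filled circles with a line are loci called in every library of the antibody (YY1 green, OCT4 purple, H3K9me3 black), crosses are loci called in some, and grey ticks are member start sites. YY1 exceeds 20-fold in HOXA and HOXB and reaches 20 in HOXD, while no HOXC locus called in every library exceeds 7.02.

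YY1 peaks were dense over the clusters. They numbered 46 and 47 without and 69 and 78 with doxycycline, or 8.17 to 13.9 per 100 kb, against 1.96 to 4.03 over the genome. In each library the density was 3.15 to 4.29 times that of the genome. The clusters hold 39 promoters in 562711 bp, and the part of gene density in this ratio was not tested. Per promoter, YY1 in all 4 libraries was less frequent at the members than at all protein-coding genes (30.8% against 46.7%). The means of 46.5 ± 0.707 without and 73.5 ± 6.36 peaks with doxycycline (SD, n = 2) did not overlap, and the exact permutation test gave its smallest possible p of 0.33. The genome-wide lists grew as well, from 56110 and 75849 to 81666 and 115345 peaks, and when the lists were brought to equal length by their strongest peaks the clusters held 41 without and 43 with doxycycline on average. The HOXA and HOXD clusters were covered for 6.60% to 11.2% of their length, HOXB for 3.46% to 4.95% and HOXC for 1.28% to 3.72%.

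Of 92 merged YY1 loci in the clusters, 35 (38.0%) were called in all 4 libraries, against 26.4% of loci across the genome. HOXA held 12 of them, HOXD 11, HOXB 9 and HOXC 3. A further 7 (7.61%) were called in both treated and neither untreated library, against 6.49% over the genome, and 0 in the opposite pattern, against 0.242%. The strongest stood between HOXA7 and HOXA9, outside annotated genes at chr7:27200070-27201473, with a fold enrichment of 32.6 and 36.6 without and 44.8 and 46.6 with doxycycline. The second lay in the HOXA2 gene at chr7:27140073-27142126, with 31.5 and 33.9 without and 44.7 and 41.2 with doxycycline. The third overlapped the HOXB5 promoter at chr17:46670417-46671974, with 22.0 and 31.3 against 30.9 and 43.9. These 3 ranked at or above the 92.5th percentile of mean fold among the 36956 loci called in all 4 libraries, while the median of the 35 was 6.73, against 7.92 over the genome.

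The fourth lay at the 3′ end of HOXB2, at chr17:46618513-46620116. Its fold enrichment was 18.3 and 25.9 without and 18.6 and 31.2 with doxycycline, so the conditions overlapped. At the HOXB2 promoter a weak YY1 peak was called in replicate 1 of each condition, at 4.12 without and 4.2 with doxycycline, and in neither second replicate. Another shared locus, at chr17:46631726-46633737, had its summit 1022 bp upstream of the HOXB3-205 start, with 11.1 and 7.67 without and 10.8 and 12.2 with doxycycline. In the HOXD cluster the strongest locus was at chr2:176969135-176970445, 2180 bp upstream of the canonical HOXD11 start, with 16.4 and 23.8 against 17.6 and 22.1. In HOXC it was at chr12:54410105-54410791 in HOXC6, with 5.2 and 8.06 against 6.82 and 8. Of the 35 loci, 28 had a higher mean fold with doxycycline, with a median ratio of 1.24, and over the genome the median ratio was 1.25. Both treated libraries exceeded both untreated ones at 13 of the 35, against 40.6% of shared loci over the genome.

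**Figure D4:**
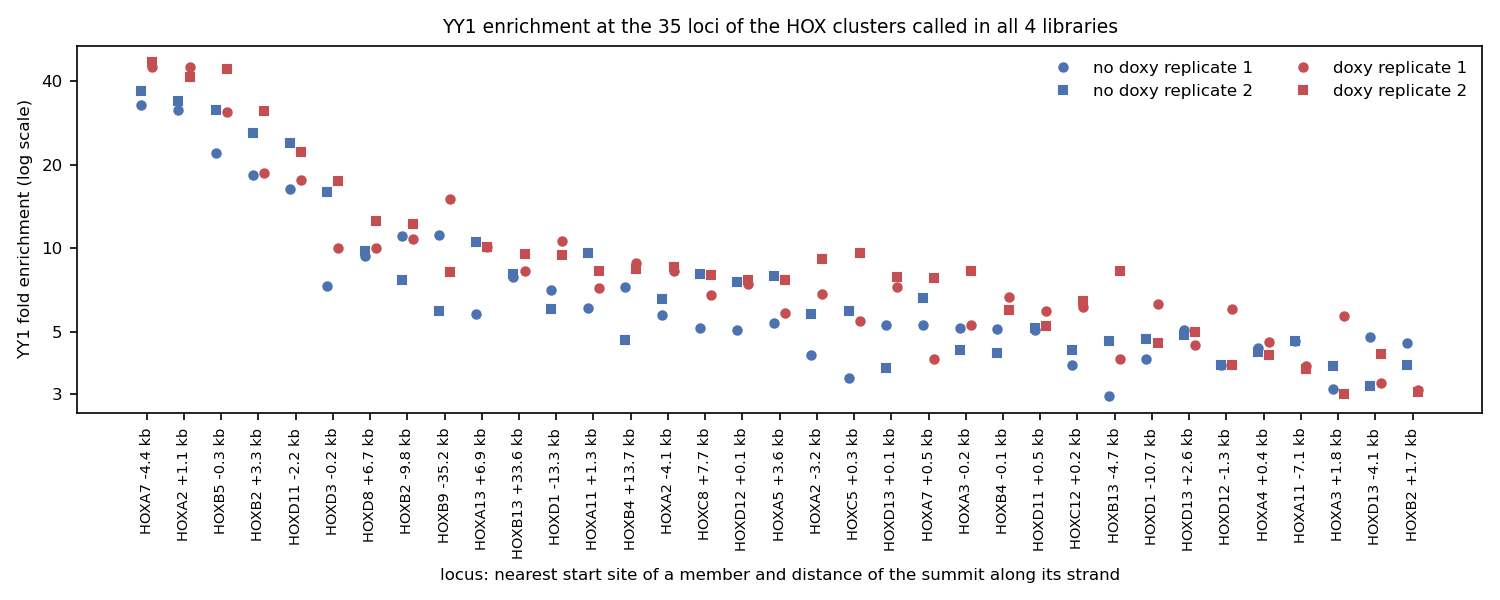
YY1 fold enrichment (log scale) at the 35 loci of the HOX clusters called in all 4 libraries, ordered by mean and named by the nearest member start and the distance of the summit along its strand. Blue points are the 2 libraries without and red points the 2 with doxycycline, and the colours separate at 13 loci.

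The sequences at 5 of the strongest YY1 loci are shown for the letters of the known YY1 core. Each is the plus strand of hg19 centred on the median summit, with GCCATNTT or GCCGCCAT on either strand in capitals. These spellings share the letters GCCAT, and the second was added after the sequences had been read.
Between HOXA7 and HOXA9, chr7:27200654-27200754: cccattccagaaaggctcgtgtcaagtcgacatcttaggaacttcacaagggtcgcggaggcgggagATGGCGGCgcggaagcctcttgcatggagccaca
HOXA2 gene, chr7:27141158-27141258: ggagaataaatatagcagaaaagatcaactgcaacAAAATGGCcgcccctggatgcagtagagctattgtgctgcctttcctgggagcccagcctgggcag
HOXB5 promoter, chr17:46671401-46671501: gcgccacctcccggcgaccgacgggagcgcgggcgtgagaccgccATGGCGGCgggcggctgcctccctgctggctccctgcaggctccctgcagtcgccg
HOXD11 upstream, chr2:176969778-176969878: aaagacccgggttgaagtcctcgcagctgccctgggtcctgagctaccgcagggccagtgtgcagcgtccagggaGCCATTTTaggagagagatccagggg
HOXD3 promoter, chr2:177021800-177021900: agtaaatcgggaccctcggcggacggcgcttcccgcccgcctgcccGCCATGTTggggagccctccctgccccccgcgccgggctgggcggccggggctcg

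All 5 windows held a match, those between HOXA7 and HOXA9 and at the HOXB5 promoter through GCCGCCAT alone. Over the 35 shared loci of the clusters 16 (45.7%) did, against 42.8% of the 36956 shared loci of the genome and 1.84% of windows of the same length placed 1000 bp to the right of them. Counted with or without the other spelling, GCCGCCAT was in 17.1% of the windows of the clusters and 6.02% of those of the genome. GCCATNTT, counted the same way, was in 28.6% and 40.1%. Because GCCGCCAT was added after the sequences had been read, its share and the combined share in the clusters are no test. A match is a description of the letters and not of a bound site.

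At promoters, YY1 peaks were called in all 4 libraries for 12 of the 39 members (30.8%), against 46.7% of all protein-coding genes. They were HOXA2, HOXA3, HOXA4, HOXA7, HOXB4, HOXB5, HOXC5, HOXC12, HOXD3, HOXD11, HOXD12 and HOXD13. A further 13 members had a peak in 1 to 3 libraries and 14 in none. By library, 17 and 15 members carried one without doxycycline, against 54.4% and 52.3% of genes, and 21 and 20 with it, against 58.6% and 60.3%. Both untreated libraries had one at 13 members (47.9% of genes) and both treated at 17 (54.7% of genes). Of the 33 members with a mean below 1 TPM, 11 (33.3%) carried YY1 in all 4 libraries, against 10.7% of the 7048 protein-coding genes at that level and 66.5% of those at 1 TPM or more. Of the 6 members at 1 TPM or more, HOXD13 was the one with YY1 in all 4 at its canonical start. The canonical HOXB3 start had no YY1 peak, whereas the shared locus upstream of HOXB3-205, the transcript with 65.2% of HOXB3 counts, begins within 1 kb of the start of that transcript. With any protein-coding start counted, 16 members had a peak in both untreated and 20 in both treated libraries. Members of a cluster share their surroundings, and the difference was given no test.

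**Figure D5:**
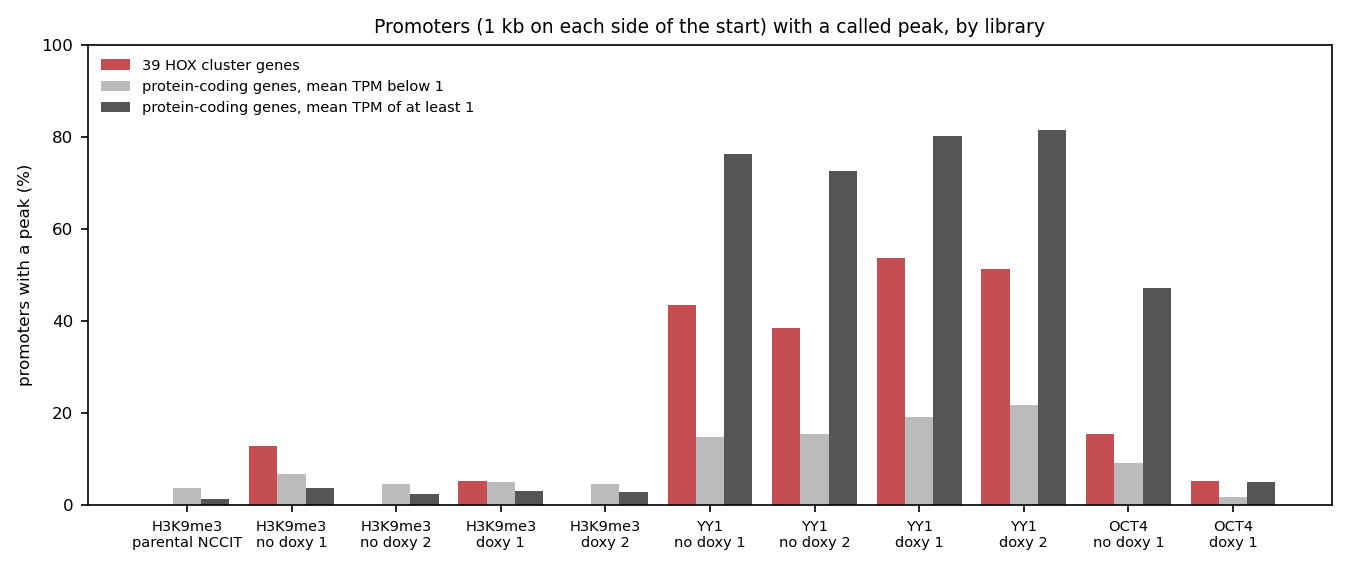
Share of promoters with a called peak (1 kb on each side of the start) in each ChIP-seq library, for the 39 HOX cluster genes in red, protein-coding genes with a mean below 1 TPM in light grey and those at 1 TPM or more in dark grey. For YY1 the red bars, from 38.5% to 53.8%, lie between the grey ones in all 4 libraries.

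OCT4 peaks over the clusters numbered 26 without and 9 with doxycycline, with 1 library each and therefore no test. The whole lists held 50582 and 23106 peaks, and at equal list length both conditions had 9. In the HOXD cluster alone the counts were 16 and 3. Of 26 OCT4 loci, 9 were called in both libraries. The strongest lay between HOXD13 and HOXD12 at chr2:176961719-176962645, with a fold enrichment of 20.6 without and 8.34 with doxycycline. At the HOXB1 promoter, at chr17:46608228-46608723, it was 11.8 and 11.5, and HOXB1 RNA was nearly undetected. In the 3′ parts of HOXA2 and HOXB3 it was 9.14 and 9.01 without and 8.32 and 7.15 with doxycycline, and in HOXC5 5.28 and 5.26. Promoter peaks were called for 6 members (15.4%) without and 2 (5.13%) with doxycycline, against 33.7% and 3.9% of all protein-coding genes. HOXB1 and HOXD8 carried one in both libraries, and HOXD9, HOXD11, HOXD12 and HOXD13 without doxycycline alone.

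The summit windows of the 2 strongest OCT4 loci are shown for their octamer content, with ATGCNAAT, or the composite of CTTTGTN followed directly by this octamer, in capitals on either strand. The composite contains the octamer, and both spellings were chosen after the sequences had been read. The composite adds a SOX element to the octamer.
HOXB1 promoter, chr17:46608434-46608534: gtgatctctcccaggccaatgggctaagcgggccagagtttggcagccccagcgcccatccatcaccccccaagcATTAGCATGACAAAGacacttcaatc
Between HOXD13 and HOXD12, chr2:176961975-176962075: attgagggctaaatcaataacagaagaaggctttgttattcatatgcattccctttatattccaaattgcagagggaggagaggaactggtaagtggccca

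The HOXB1 window held the composite on the minus strand, which is no test, since the spelling was chosen after that window had been read. The same spelling was found in 0.332% of the 20152 OCT4 loci called in both libraries and in 0 of the windows placed 1000 bp away. The octamer, within the composite or not, was in 2 of the 9 shared loci of the clusters (22.2%), the HOXB1 window among them. Over the genome it was in 15.6% of shared loci and in 1.47% of the displaced windows. The octamer spelling was also chosen after the sequences had been read, so its share in the clusters is no test. The window between HOXD13 and HOXD12 held neither spelling.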

How the data were processed

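Conditions were taken from the sample labels, and dose and time from the study's methods. An unnumbered ChIP-seq library is given here as replicate 1. The members, gene lists and motifs were chosen with earlier results of these data known.

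For RNA-seq, the authors deposited kallisto estimated counts and TPM per transcript, with the index and version not given in the sources used here. Transcripts were matched to GENCODE v44lift37 (166506 of 188753, holding 95.85% to 95.96% of estimated counts) and summed per gene. Rounded sums were tested in R 4.3.3 by the quasi-likelihood test of edgeR 4.0.16, after filterByExpr and TMM scaling, at a Benjamini-Hochberg adjusted p of 0.05. DESeq2 1.42.0 was an alternative. Counts of libraries of a condition differed by 7.43 to 14.6 chi-square units per gene, so none was a duplicate. The text names any member, with values in all libraries for those at a mean of 1 TPM or an adjusted p under 0.05. Of other lists it names genes past the test, at most 6 a list by p, and a fixed set of regulators.

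For ChIP-seq, the authors aligned reads to hg19 with BWA MEM, discarded duplicates and alignments with a mapping quality of 10 or less, and called peaks in each library at 5% FDR. The caller is not named in the sources used here. The deposited lists give fold enrichment as a ratio and p- and q-values as −log10. They carry no read depth, so no interval was given. Peaks on chromosomes 1 to 22, X and Y were used, a cluster was its genes with 5 kb on each side, and peaks of an antibody that touched were merged into loci. Scripts ran in Python 3.11.15, with sequence read from GRCh37 (the hg19 build), and were tested on simulated counts and intervals. A YY1 HiChIP table was left out because 16 of its columns could not be tied to a condition. Certain genes and sequences are not reported here.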

Additional observations from a re-analysis of the deposited data

How the results depend on the processing

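HOXB2 was called in all 13 alternatives to the RNA comparison, and no member was called lower in any. Members called higher numbered 2 with at least 10 counts in every library (HOXB2 and HOXB3) and ranged from 1 to 2 when each library was left out (HOXA11 being added without no doxy replicate 3). HOXB3 had 0.27 (adjusted p = 0.0482, edgeR) under the former. The calls over all genes fell to 1877 with length-scaled counts and ranged from 1396 to 3259 with each library left out. With the replicate number as a block, 3316 genes were called HOXB2 being the one member, while same-numbered libraries did not deviate together (correlations of 0.128, 0.08 and −0.001) and were not taken as pairs. The log2 fold change of HOXD4 ranged from −0.04 to 0.16 with each library left out and that of HOXC4 from −0.12 to 0.01. HOXD4 changed sign to −0.04, −0.01 and −0.01 without no doxy replicate 2, no doxy replicate 3 and doxy replicate 3, and HOXC4 to 0.01 without doxy replicate 2. With thresholds of 0.1 and 5 TPM, 22 and 2 members were counted as expressed.

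With a −log10 q of at least 5 the mean peaks over the clusters fell to 2.0 (parental), 2.0 and 1.0 for H3K9me3 and to 13 for OCT4 without doxycycline, and members with a promoter peak to 7 (YY1) and 3 (OCT4) without doxycycline. With 20 kb on each side, H3K9me3 peaks with doxycycline averaged 6.0. With equal list lengths the means were 3.0 without and 3.5 with doxycycline for H3K9me3, so that their order turned, 43 for YY1 with doxycycline and 9.0 for OCT4 without it, and 3 promoters had OCT4 without doxycycline. Windows of 2500 bp gave promoter counts of 1 for parental H3K9me3 and 10 and 5 for OCT4, and any protein-coding start gave 1 and 10 (without doxycycline). Leaving out 1 library moved H3K9me3 means from 3.0 to 12 without and from 1.0 to 6.0 with doxycycline, and promoter counts from 0 to 5 and from 0 to 2, and YY1 means from 46 to 47 and from 69 to 78. The causes were not tested. The filter on low counts left 23 members untested. Without it all 39 were tested in edgeR, and in DESeq2 all 39 were fitted, some without an adjusted p, and HOXB2 was the one called in both, and without no doxy replicate 1, the library with the fewest counts (14683468), 17 were tested. The peak lists give no depth.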
